A study of Mus musculus with 12 samples.

Results

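Mitochondrial ribosomal proteins are the proteins, encoded in the nucleus, that build the ribosome inside mitochondria. The 78 genes described here were all genes of the deposited count table whose symbol starts with Mrpl or Mrps followed by a digit, pseudogene symbols left out, of 22584 genes in all. They comprise 51 genes of the large subunit, 26 of the small subunit and Mrps36, whose protein is now known as a part of the 2-oxoglutarate dehydrogenase complex rather than of the ribosome. RNA came from cardiomyocytes isolated from the hearts of wild-type (WT) C57BL6 mice, in 4 groups of 3 libraries. Sham saline and sham JV001 animals had a sham operation, with 12 weeks given for both, and an injection of saline or of JV001. CKD saline and CKD JV001 animals received AngII, a high salt diet and uninephrectomy, a combination the labels call CKD, and the same injections. The labels give 12 weeks for CKD JV001 and no duration for CKD saline. What JV001 is made of is not stated in the labels; the title of the series names telomere recapping and gene therapy. Age and sex of the mice are not stated there either, and nothing says that libraries of a group came from separate animals, so the p-values rest on the spread among libraries alone, which may be technical.

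The mitochondrial ribosome translates the few mRNAs of the mitochondrial genome, all of which encode subunits of the respiratory chain and ATP synthase. Its rRNAs are made inside mitochondria, while every one of its proteins is made in the cytosol and imported, so its assembly depends on both genomes. It has replaced part of the bacterial rRNA with proteins, some descended from bacterial ribosomal proteins and others found only in mitochondria. Heart muscle relies on oxidative phosphorylation, and inherited defects of MRPL3, MRPL44 and MRPS22 are known causes of cardiomyopathy in people.

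Between 25.2 and 37.0 (in units of 1e+06) reads were counted per library, and every one of the 78 genes had at least 217 reads in each library, so all passed the filter on low counts. All 12 ventricular cardiomyocyte markers (Myh6, Myl2, Ttn, Ryr2 and others) exceeded 1 CPM (counts per 1e+06 counts, scaled by edgeR's TMM factors here and throughout) in each library. Markers of other cells were present too. All 10 fibroblast markers also exceeded 1 CPM everywhere, and their summed level ranged over 310 to 1187 CPM (sham saline), 625 to 1305 CPM (sham JV001), 633 to 2485 CPM (CKD saline) and 2901 to 3832 CPM (CKD JV001). For the 10 macrophage markers, 9 of them above 1 CPM in all libraries, the sums were 39.4 to 191, 84.2 to 277, 104 to 525 and 538 to 1002 CPM in the same order. Library 3 stood apart in both CKD groups, and library 1 in sham saline. CKD saline library 3 had a mean ventricular marker level of 11.79 on the log2(CPM + 1) scale, against 12.62 in both other libraries of its group, and CKD JV001 library 3 had 10.74, where its companions reached 11.92 and 11.94. Sham saline library 1 differed from libraries 2 and 3 by a chi-square per gene of 307 and 270, where those 2 differed by 32.9. Its mean endothelial marker level was 7.02, beside 5.30 and 5.65. For each contrast, the median of the set is also given with single libraries left out. Values of gene lists and of subunits, and those of most single genes, come from all 12 libraries. CKD saline libraries 1 and 2 were the most alike of all replicate pairs (chi-square per gene 9.18, against 27.0 to 424 for the others), which still exceeds sampling noise. They were kept as separate libraries, and a fit with both summed into 1 library is given beside the results; whether they came from 1 animal is not stated in the labels.

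Abundance within the set was read from the authors' FPKM, which corrects for gene length. Averaged over 12 libraries, the 78 genes ran from 3.19 to 297 FPKM with a median of 21.0, above 87.7% of the 15004 genes tested. Large and small subunit genes had nearly the same median, 21.2 and 20.8 FPKM. So did the 45 genes with a bacterial homologue and the 32 found only in mitochondria, at 20.8 and 21.1 FPKM. Mean FPKM of large subunit genes was 1.07 to 1.23 times that of small subunit genes in each library.

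**Figure D1:**
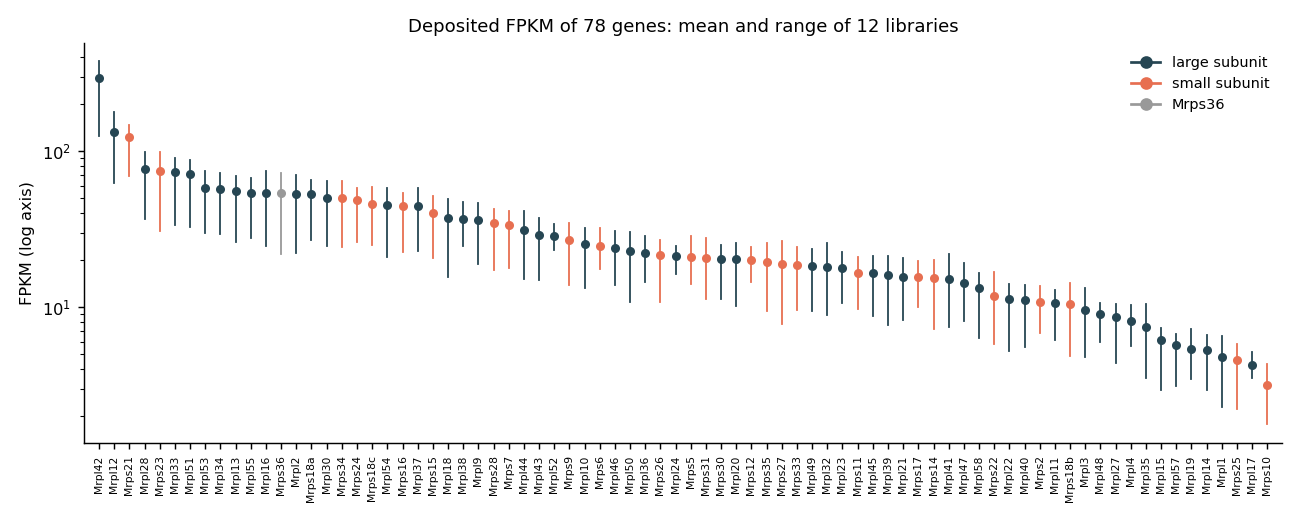
Deposited FPKM of each of the 78 genes on a log axis, ordered by level, with large subunit, small subunit and Mrps36 in different colours; points are means and lines the range of 12 libraries. A few genes, led by Mrpl42 at 297 FPKM, stand above the rest, and genes of both subunits are spread over the whole range down to Mrps10 at 3.19 FPKM.

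Although the proteins are assembled in one particle, a few mRNAs made up much of the total. The 5 most abundant genes held 26.9% of the summed FPKM, the top 10 held 38.9% and the upper 39 held 80.8%. Mrpl42, a large subunit protein found only in mitochondria, averaged 297 FPKM. Mrpl12, which forms the stalk that recruits translation factors, averaged 133 FPKM, and Mrpl28 of the large subunit 77.1 FPKM. In the small subunit Mrps21 averaged 123, Mrps23 74.8 and Mrps34 50.2 FPKM. At the low end stood Mrps25 at 4.61, Mrpl17 at 4.28 and Mrps10 at 3.19 FPKM. The 3 paralogues of bacterial S18, which take different places in the particle, differed in level: Mrps18a had 53.4, Mrps18c 45.7 and Mrps18b 10.4 FPKM.

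The composition of the set varied little beside its total. Expressed as a share of the summed FPKM of the set, a gene's highest library exceeded its lowest by a median of 1.35-fold. Mrpl28 kept the narrowest range, 1.13-fold, with shares of 2.77% to 3.13%. Mrpl17 varied 2.08-fold and Mrps6, a small subunit protein, 2.77-fold, from 0.74% to 2.05%.

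Promoter sequence from RefSeq (build GRCm38.p6) was found for 69 of the 78 genes, which lie on 17 chromosomes, in windows of 250 bases before to 50 bases after the start. The authors' counts used GRCm39, so these positions are not those of their build. Because nuclear respiratory factor 1 (NRF1) and ETS family factors such as NRF2 are known regulators of nuclear genes for mitochondrial proteins, the windows were searched on both strands for the core of the NRF1 consensus, 10 letters of which 1 may be any base, and for the shorter CCGGAAG (ETS). In 4 windows both were found. The NRF1 letters stood in 13 of 69 windows (18.8%), against 9.47% of 11822 windows of tested genes and 4.78% of all 27025 windows in the table. The ETS letters stood in 25 (36.2%), against 16.6% and 9.12%. Either stood in 34 (49.3%), against 24.2% and 13.0%. The following genes are a choice among those named below, so no frequency of the letters can be read from them. Each is shown with the 100 bases before its start, 5′ to 3′ on the strand of the gene. Capitals mark the NRF1 letters in Mrpl12, Mrpl32, Mrpl44, Mrpl45 and Mrpl17 and the ETS letters in Mrpl3 and Mrps22. Mrpl16 and Mrpl50 had neither in these bases.
Mrpl12, chr11:120484537-120484636, plus strand: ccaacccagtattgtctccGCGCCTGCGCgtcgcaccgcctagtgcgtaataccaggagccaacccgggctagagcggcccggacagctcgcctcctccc
Mrpl32, chr13:14613038-14613137, minus strand: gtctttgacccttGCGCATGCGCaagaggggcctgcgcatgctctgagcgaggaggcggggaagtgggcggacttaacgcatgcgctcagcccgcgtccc
Mrpl44, chr1:79775918-79776017, plus strand: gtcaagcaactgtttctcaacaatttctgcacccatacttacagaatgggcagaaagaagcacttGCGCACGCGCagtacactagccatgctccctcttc
Mrpl45, chr11:97315616-97315715, plus strand: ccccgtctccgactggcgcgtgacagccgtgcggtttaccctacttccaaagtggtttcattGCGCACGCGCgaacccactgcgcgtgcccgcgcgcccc
Mrpl17, chr7:105811088-105811187, minus strand: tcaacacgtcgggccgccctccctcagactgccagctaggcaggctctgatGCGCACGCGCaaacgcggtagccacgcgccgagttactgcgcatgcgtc
Mrpl3, chr9:105053168-105053267, plus strand: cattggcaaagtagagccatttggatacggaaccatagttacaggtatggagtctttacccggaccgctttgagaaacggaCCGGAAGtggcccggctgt
Mrps22, chr9:98601680-98601779, minus strand: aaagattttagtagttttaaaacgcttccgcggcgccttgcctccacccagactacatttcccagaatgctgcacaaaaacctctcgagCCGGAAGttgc
Mrpl16, chr19:11770315-11770414, plus strand: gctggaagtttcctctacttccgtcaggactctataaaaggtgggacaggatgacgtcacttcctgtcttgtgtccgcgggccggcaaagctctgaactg
Mrpl50, chr4:49521084-49521183, minus strand: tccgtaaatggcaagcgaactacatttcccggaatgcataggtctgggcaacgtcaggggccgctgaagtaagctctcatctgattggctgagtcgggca

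Many of these genes start back to back with a neighbour. A start on the opposite strand, pointing away, lay within 1000 bases of 26 of the 69 (37.7%), against 17.2% of tested genes. Several neighbours also serve mitochondria, among them Sars2, the mitochondrial seryl-tRNA synthetase beside Mrps12, Twnk, the mitochondrial DNA helicase beside Mrpl43, and Ndufb5, a complex I subunit beside Mrpl47. One pair lies within the set: Mrpl46 of the large subunit (minus strand) and Mrps11 of the small subunit (plus strand) start 41 bases apart. The whole stretch between them is shown. Whether it drives either gene was not tested.
Mrpl46 and Mrps11, chr7:78783090-78783130, plus strand: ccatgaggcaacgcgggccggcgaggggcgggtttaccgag

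The summed level of the 78 genes gave the first view of the groups. Sham saline libraries 1 to 3 had 3290, 4083 and 4064 CPM, and sham JV001 libraries 3316, 3423 and 3894 CPM. CKD saline libraries had 4329, 4262 and 2674 CPM, and CKD JV001 libraries 3166, 3117 and 1643 CPM. The 3 CKD JV001 libraries lay below every library of both sham groups and below CKD saline libraries 1 and 2, while CKD saline library 3 lay between CKD JV001 library 2 and CKD JV001 library 3. The mean was 3812 ± 452 CPM for sham saline and 3544 ± 308 CPM for sham JV001, then 3755 ± 937 CPM for CKD saline, beside 2642 ± 866 CPM for CKD JV001 (SD, n = 3).

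**Figure D2:**
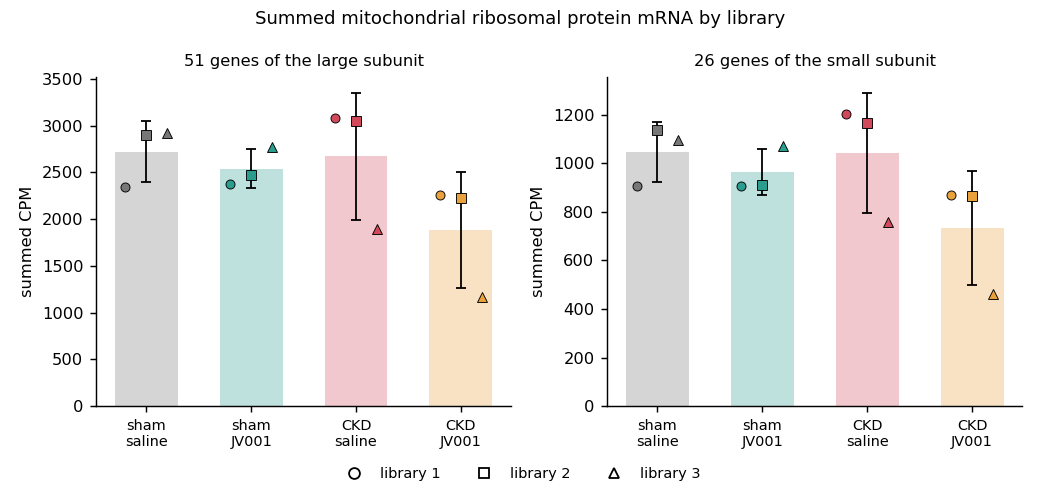
Summed CPM of the large subunit genes (left) and of the small subunit genes (right) in each of 12 libraries; bars are group means, error bars SD over 3 libraries, symbols the library number. Both panels show the same order, with CKD JV001 library 3 lowest (1166 and 463 CPM) and CKD saline libraries 1 and 2 highest (3078 and 3049 CPM for the large subunit).

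The pattern was shared by nearly all genes. CKD JV001 library 3 was the lowest of 12 libraries for 77 of 78 genes, Mrps6 being the exception. CKD saline library 1 was the highest for 32 genes and CKD saline library 2 for 27. Relative to each gene's sham saline mean, the median gene stood at 115.5% and 111.3% in CKD saline libraries 1 and 2, at 70.0% in CKD saline library 3, at 83.9% and 84.3% in CKD JV001 libraries 1 and 2 and at 42.6% in CKD JV001 library 3. Sham saline libraries 1 to 3 themselves stood at 87.2%, 107.7% and 105.8%, and sham JV001 libraries at 87.0%, 88.9% and 102.9%. Since 100% is each gene's sham saline mean, sham saline libraries lie on both sides of it by construction. The distance between a group's highest and lowest library was widest in CKD saline and CKD JV001.

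JV001 against saline in the CKD model gave lower fitted values for every gene of the set, none of which passed the test. All 78 log2 fold changes were below 0, where 48.6% of all genes tested were, with a median of -0.48 and a range of -0.80 to -0.14; the median of all genes was 0.02. By edgeR's quasi-likelihood test with Benjamini-Hochberg adjustment over 15004 genes, 0 members passed at an adjusted p of 0.05, as did 0% of all genes, and the smallest adjusted p of a member was 0.276. DESeq2 and limma on FPKM also called 0 members. At an unadjusted p under 0.05, 19 members (24.4%) were lower and 0 higher, beside 8.75% and 9.29% of all genes. The groups did not overlap, with CKD JV001 lower, for 3 members, Mrpl24, Mrpl40 and Mrps17 (3.85%, all genes 6.04%), and with CKD JV001 higher for 0 (all genes 8.22%).

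Those counts turned on CKD library 3. Without CKD saline library 3, 21 members passed, all lower (26.9%, all genes lower 8.07%), the median was -0.69, and the 2 groups did not overlap for 77 members (all genes 30.8%). Without library 3 of both CKD groups, 29 members passed, all lower (37.2%, all genes lower 10.1%), with a median of -0.45. Without CKD JV001 library 3, 0 passed and the median was -0.25. CKD libraries with the same number deviated together, and in a fit of only the 2 CKD groups with the number as a replicate block, chosen after seeing the data, 37 members passed, all lower (47.4%, all genes lower 9.56%). The CKD saline libraries that remain in the fits without library 3 are the pair that differed least. Where library 3 of both groups was left out, the CKD JV001 libraries that remain are the next most alike pair (chi-square per gene 27.0). With CKD saline libraries 1 and 2 summed into 1 library and library 3 kept, 0 members passed and the median was -0.37. The fit of all 12 libraries also passed 0, so the summed fit does not test the calls made without library 3.

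**Figure D3:**
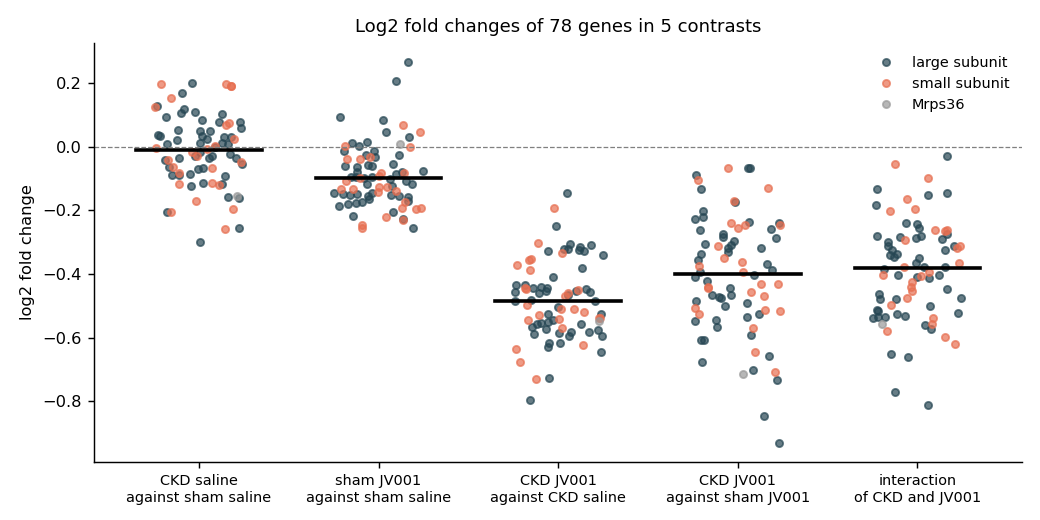
Log2 fold changes of the 78 genes (points, coloured by subunit) in 5 contrasts, with the median as a black line. All points lie below 0 in the contrasts that hold CKD JV001, with medians of -0.48, -0.40 and -0.38, whereas the points of CKD saline and of sham JV001 against sham saline lie on both sides of 0. The 3 contrasts with all points below 0 share the CKD JV001 libraries.

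Mrpl16 and Mrpl50 had the largest fitted differences of the large subunit. Mrpl16, a protein of bacterial descent near the site where peptide bonds form, had 64.7, 76.2 and 81.3 CPM in the sham saline libraries and 63.5, 61.0 and 61.6 CPM with sham JV001. CKD saline libraries had 85.4, 82.2 and 44.3 CPM and CKD JV001 libraries 47.5, 48.7 and 25.9 CPM. CKD JV001 lay below both sham groups in all 3 libraries and overlapped CKD saline only through CKD saline library 3. The log2 fold change against CKD saline was -0.80 (SE 0.27, edgeR adjusted p 0.276); it was -1.06 without CKD saline library 3 (adjusted p 0.0326), -0.55 without CKD JV001 library 3 and -0.83 without both.

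Mrpl50, found only in mitochondria, had 47.6, 56.5 and 57.6 CPM in the sham saline libraries and 52.2, 55.7 and 63.6 CPM with sham JV001. After CKD it had 64.0, 58.5 and 35.2 CPM with saline and 37.9, 36.3 and 21.2 CPM with JV001. It showed the same arrangement, again with CKD saline library 3 alone reaching into the CKD JV001 range. Its log2 fold change was -0.73 (SE 0.25, edgeR adjusted p 0.276), or -0.96 without CKD saline library 3 (adjusted p 0.0332), -0.50 without CKD JV001 library 3 and -0.75 without both.

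Mrpl40 and Mrps17 were among the genes whose CKD groups did not overlap. Mrpl40, a large subunit protein found only in mitochondria, had 21.4, 19.96 and 17.2 CPM under saline in CKD and 14.7, 16.1 and 8.19 CPM under JV001, a log2 fold change of -0.59 (SE 0.23, edgeR adjusted p 0.276). For Mrps17, a small subunit protein of bacterial descent, CKD saline libraries had 38.9, 38.2 and 29.0 CPM and CKD JV001 libraries 27.9, 27.3 and 18.4 CPM, a log2 fold change of -0.53 (SE 0.20, edgeR adjusted p 0.276). In both genes the lowest CKD saline library was library 3, and it still exceeded the highest CKD JV001 library.

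**Figure D4:**
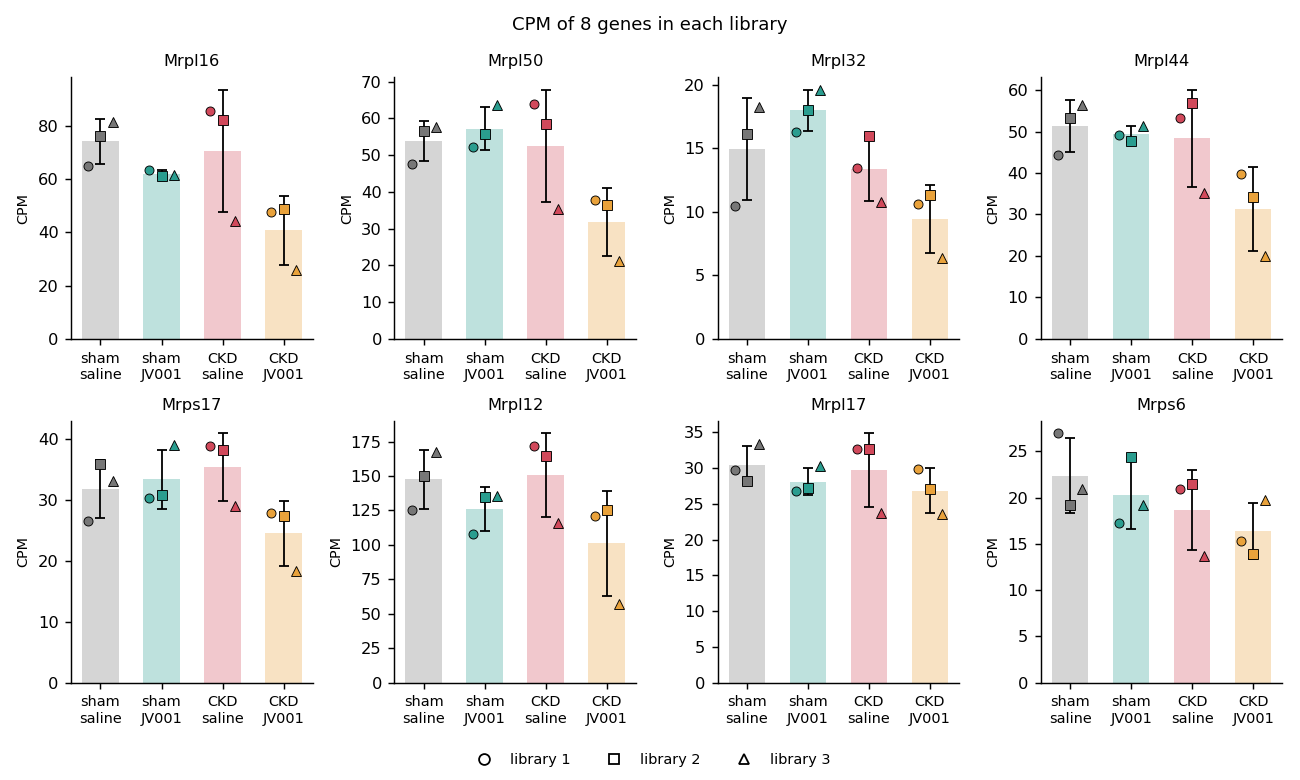
CPM of 8 genes in each library by group; bars are means, error bars SD over 3 libraries, symbols the library number. CKD JV001 is the lowest group for each gene shown, by little for Mrpl17 (26.9 against 29.7 CPM in CKD saline) and with library 3 highest in its group for Mrps6 (19.7 CPM).

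Genes known from inherited heart disease lay within the range of the set. Mrpl44, which has an RNase III-like fold, had 53.2, 56.9 and 35.1 CPM under saline in CKD and 39.7, 34.1 and 20.01 CPM under JV001, a log2 fold change of -0.63 (SE 0.25, edgeR adjusted p 0.276). Mrpl3, a core protein of the large subunit, had 104, 99.3 and 54.9 against 71.3, 65.9 and 39.0 CPM, or -0.55 (SE 0.28, edgeR adjusted p 0.287). Mrps22, found only in mitochondria, had 18.9, 16.4 and 9.37 against 13.1, 13.1 and 6.60 CPM, or -0.44 (SE 0.32, edgeR adjusted p 0.387). In all 3 genes CKD saline library 3 fell within the CKD JV001 range while CKD saline libraries 1 and 2 stayed above it.

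Proteins with special places or tasks in the ribosome gave similar values. The stalk protein gene Mrpl12 had 172, 164 and 116 CPM with saline in CKD and 121, 125 and 57.0 CPM with JV001, a log2 fold change of -0.57 (SE 0.28, edgeR adjusted p 0.283). Mrpl45, which sits at the exit tunnel and holds the ribosome to the inner membrane, had -0.62 (SE 0.27), and Mrpl58, a peptidyl-tRNA hydrolase that releases stalled chains, -0.47 (SE 0.29). Mrps12, a protein of the decoding site, had -0.30 (SE 0.22). The 3 paralogues Mrps18a, Mrps18b and Mrps18c had -0.53, -0.54 and -0.51, so their different levels went with nearly the same fitted change. Mrps36, outside the ribosome, had -0.55 (SE 0.31).

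Subunit and origin made little difference to these values. The median log2 fold change of JV001 against saline in CKD was -0.48 for the large and -0.50 for the small subunit, and -0.47 for genes of bacterial descent and -0.53 for genes found only in mitochondria. Genes with and without the NRF1 letters both had -0.48, and genes with and without the ETS letters had -0.46 and -0.49. Of the divergent neighbours outside the set, 21 were tested, and 14 had values below 0, with a median of -0.22, where the set's own genes of those pairs had -0.51. Within the pair that starts 41 bases apart, Mrpl46 had -0.46 (SE 0.28) and Mrps11 -0.36 (SE 0.27).

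Mrpl17 and Mrps6 had the smallest differences. Mrpl17, a large subunit protein of bacterial descent, had 32.7, 32.7 and 23.7 CPM with saline in CKD and 29.8, 27.1 and 23.6 CPM with JV001, a log2 fold change of -0.14 (SE 0.16, edgeR adjusted p 0.567), which was 0.03 and 0.04 with limma on log2(FPKM + 1) and log2(FPKM + 0.1). Mrps6 had 20.9, 21.5 and 13.7 against 15.3, 14.0 and 19.7 CPM, or -0.19 (SE 0.23, edgeR adjusted p 0.591). Without CKD JV001 library 3 the value of Mrps6 was -0.35, and without library 3 of both CKD groups -0.56.

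Mrps6 overlaps Slc5a3, a myo-inositol transporter gene, in RefSeq. Slc5a3 had 15.0 CPM in CKD JV001 library 3, its highest library. Libraries 1 and 2 of that group had 3.20 and 3.26 CPM, and CKD saline library 3 had 6.20 CPM; its part in the Mrps6 values was not tested. In all, 25 of the 78 genes overlap another gene there, among those named Mrpl19, Mrpl24, Mrpl37, Mrpl43, Mrpl44, Mrps18a, Mrps18b, Mrps23 and Mrps25. No source used here gives the strand setting of the counting, so reads of overlapping genes could not be told apart.

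Cardiomyocyte markers were low in the same libraries as the set. The mean log2 CPM of the 78 genes was 5.13, 5.43 and 5.43 (sham saline), 5.14, 5.19 and 5.39 (sham JV001), 5.52, 5.51 and 4.84 (CKD saline) and 5.09, 5.07 and 4.18 (CKD JV001). Mean ventricular marker levels in the same order were 12.31, 12.76 and 12.68, then 12.50, 12.41 and 12.57, then 12.62, 12.62 and 11.79, then 11.92, 11.94 and 10.74. The 4 libraries lowest in ventricular markers were CKD saline library 3 and the 3 of CKD JV001, and the same 4 had the lowest mean log2 CPM of the set.

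Measured against ventricular markers, the set was not low in CKD JV001. The set's mean log2 CPM less that of the markers was -7.18, -7.33 and -7.26 for sham saline and -7.37, -7.22 and -7.18 for sham JV001. For CKD saline it was -7.10, -7.12 and -6.95, and for CKD JV001 -6.84, -6.87 and -6.56. The CKD JV001 libraries were the 3 highest on this scale, with CKD saline library 3 next. Fibroblast marker levels moved the other way from the ventricular ones: on the log2(CPM + 1) scale CKD saline libraries had 4.62, 4.62 and 6.50 and CKD JV001 libraries 6.67, 6.74 and 7.20, against 4.06 to 5.68 in the sham libraries. Macrophage marker levels were 3.04, 3.03 and 5.01 with saline and 5.04, 4.94 and 6.07 with JV001 in CKD. Neutrophil marker levels were 0.58, 0.67 and 2.36 with saline and 1.25, 1.17 and 4.46 with JV001. The part of these cells in the values of the set was not tested. In bulk RNA, fewer cardiomyocytes among the cells and less of these mRNAs per cardiomyocyte cannot be told apart.

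**Figure D5:**
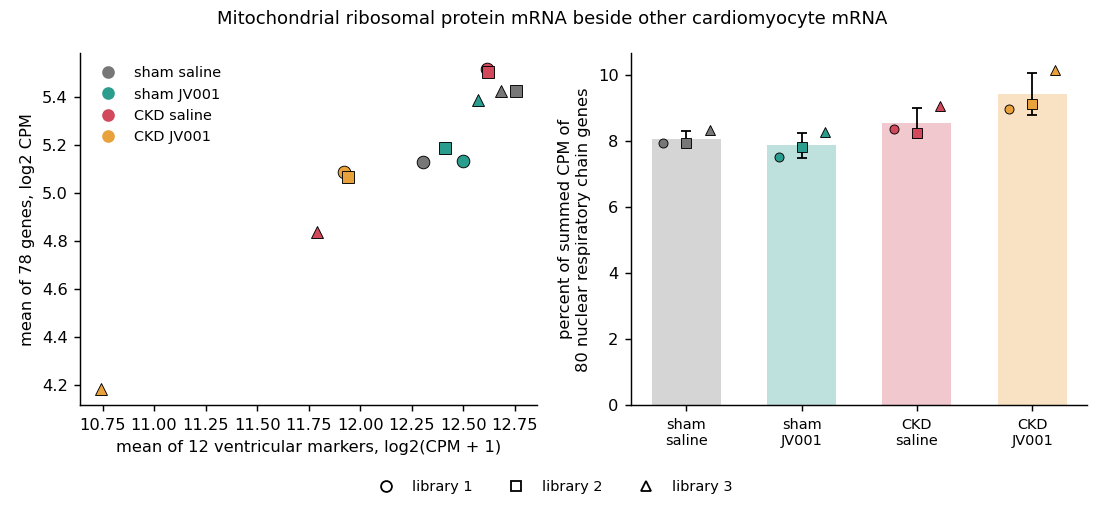
Left, mean log2 CPM of the 78 genes against the mean log2(CPM + 1) of 12 ventricular markers, 1 point per library, coloured by group; right, summed CPM of the 78 genes as a percent of that of 80 nuclear respiratory chain genes, with bars for means and error bars for SD over 3 libraries. On the left CKD JV001 library 3 lies far from the rest, at 10.74 and 4.18; on the right CKD JV001 libraries are at 8.99, 9.13 and 10.16%, against 7.54 to 8.37% in the sham libraries and in CKD saline libraries 1 and 2.

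Other genes of mitochondrial gene expression had like values. Of 5 ribosomal subunit genes with other names, 5 were below 0 (median -0.44), among them Dap3 at -0.55 (SE 0.21) and Ptcd3 at -0.73 (SE 0.32), both of the small subunit. Of 27 genes of assembly and rRNA modification, 26 were below 0 (median -0.38), with the GTPase Noa1 at -0.69 (SE 0.18) and the rRNA methyltransferase Tfb1m at -0.82 (SE 0.26). Translation factors and mRNA-binding proteins were below 0 in 18 of 18 (median -0.52), with the initiation factor Mtif2 at -0.70 (SE 0.25) and Lrpprc, which stabilises mitochondrial mRNAs, at -0.81 (SE 0.28).

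The same held further along the pathway. Mitochondrial tRNA synthetases were below 0 in 20 of 20 (median -0.49), with Iars2 at -0.64 (SE 0.25), and mitochondrial transcription and RNA processing genes in 14 of 15 (median -0.47), with the tRNA-processing enzyme Elac2 at -0.49 (SE 0.21). The 80 nuclear subunits of the respiratory chain were all below 0 (median -0.58), with Sdha at -0.76 (SE 0.28). In each of these 6 lists 0 genes passed edgeR's test, and the smallest adjusted p was 0.276. For each list, library 3 had the lowest summed level within both CKD groups. Translation factors summed to 1273, 1261 and 744 CPM with saline and 850, 819 and 465 CPM with JV001 in CKD. List values without library 3 are not given.

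Other groups of genes had medians near 0 in that contrast. The 13 mRNAs of the mitochondrial genome, which this ribosome translates, had a median of -0.07 with 8 below 0, and their summed level varied widely within groups, from 184605 to 369697 CPM in sham saline alone. Of 82 cytosolic ribosomal protein genes tested, 33 were below and 49 above 0 (median 0.04). Regulators of mitochondrial biogenesis were split, with 8 of 15 below 0 and 7 above (median -0.01). Ppara, which drives fatty acid oxidation genes, had -0.84 (SE 0.25) and the nuclear receptor Esrrb -0.89 (SE 0.33), the genes with the smallest p and the lowest value. Esrrg had -0.84, Ppargc1b -0.81, Ppargc1a -0.77 and Esrra -0.48, all named after they were seen. The highest values, named after they were seen, were 1.84 (SE 0.78) for the growth regulator Myc and 1.24 (SE 0.53) for Gabpb1, a subunit of NRF2. CKD JV001 library 3 had 51.4 CPM of Myc, beside 6.27 and 8.41 CPM in libraries 1 and 2 of that group, and 36.2 CPM of Gabpb1, beside 9.44 and 9.12 CPM. In these 3 lists, too, 0 genes passed.

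Ratios between these groups differed by library. The summed CPM of the set was 7.96, 7.94 and 8.35% of that of the nuclear respiratory chain genes for sham saline and 7.54, 7.82 and 8.27% for sham JV001. It was 8.37, 8.24 and 9.07% for CKD saline and 8.99, 9.13 and 10.16% for CKD JV001. CKD JV001 exceeded both sham groups without overlap on this scale and overlapped CKD saline through CKD saline library 3. As a percent of the cytosolic ribosomal protein genes it was 25.6, 30.2 and 31.3 (sham saline), 25.8, 25.6 and 27.6 (sham JV001), 29.1, 29.0 and 18.9 (CKD saline) and 20.6, 20.8 and 11.8 (CKD JV001), where CKD JV001 lay below both sham groups. Against both sham groups, the set in CKD JV001 thus stood lower beside cytosolic ribosomal protein mRNA and higher beside respiratory chain mRNA. CKD saline library 3 lay within the CKD JV001 range on both scales. The cause was not tested.

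CKD saline against sham saline showed no common direction. Of 78 log2 fold changes, 42 were below 0 (53.8%, all genes 48.6%), with a median of -0.01 and a range of -0.30 to 0.20. By edgeR 0 members passed (0% of all genes, smallest adjusted p of a member 0.948), and at an unadjusted p under 0.05 there were also 0 members, beside 4.95% of all genes. The groups did not overlap for 0 members (all genes 6.44% lower, 4.12% higher). DESeq2 and limma called 0 members. The direction turned on single libraries of both groups. Without CKD saline library 3 the median was 0.21 and 5 of 78 values were below 0. Without CKD saline library 1 or 2 it was -0.12 in each fit, with 65 and 61 below 0. Without sham saline library 1 it was -0.11 with 61 below 0, and without sham saline library 2 or 3 it was 0.05 and 0.06, with 27 and 23 below 0.

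The values farthest from 0 in that contrast were small. Mrpl39, found only in mitochondria, had 49.3, 61.7 and 61.7 CPM after sham operation and 55.6, 53.0 and 31.6 CPM in CKD, both with saline, a log2 fold change of -0.30 (SE 0.26, edgeR adjusted p 0.948). Mrps6 had 26.9, 19.2 and 20.9 against 20.9, 21.5 and 13.7 CPM, or -0.26 (SE 0.23). Mrps5 had -0.21 (SE 0.19), while Mrps12 and Mrpl54 had 0.20 (SE 0.22) and 0.20 (SE 0.32). CKD saline library 3 was the lowest of these 6 libraries for Mrpl39 and Mrps6, and the others of its group lay within the sham saline range.

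JV001 against saline after sham operation gave values close to 0, mostly below it. Of 78 genes, 65 were below 0 (83.3%, all genes 50.8%), with a median of -0.10 and a range of -0.26 to 0.27. The median was -0.20 without sham saline library 1 (74 below 0) and -0.18 without sham JV001 library 3 (73 below 0). It was -0.04 without sham saline library 2 (53 below 0), -0.05 without sham saline library 3 (51 below 0) and -0.06 without sham JV001 library 1 (53 below 0). By edgeR 0 members passed (0% of all genes, smallest adjusted p 0.9997), and 0 had an unadjusted p under 0.05, beside 2.84% of all genes; DESeq2 and limma called 0 members. The groups did not overlap, with sham JV001 lower, for 2 members, Mrpl16 and Mrpl37 (2.56%, all genes 6.71%), and with sham JV001 higher for 0 (all genes 5.69%). Mrpl16 had a log2 fold change of -0.26 (SE 0.27), Mrps16 -0.26 (SE 0.28) and Mrpl19 -0.21 (SE 0.23).

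Mrpl32 stood at the other end of that contrast. This large subunit protein, which is trimmed by a protease of the inner membrane before it joins the ribosome, had 10.5, 16.1 and 18.3 CPM with saline and 16.3, 18.1 and 19.6 CPM with JV001 after sham operation. In CKD it had 13.4, 16.0 and 10.8 CPM with saline and 10.6, 11.4 and 6.37 CPM with JV001. Sham saline and sham JV001 overlapped, with sham saline library 1 far below the rest, and the log2 fold change was 0.27 (SE 0.26, edgeR adjusted p 0.9997). CKD JV001 lay wholly below sham JV001.

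CKD against sham, both with JV001, again gave 78 of 78 values below 0 (all genes 48.9%), with a median of -0.40 and a range of -0.93 to -0.07. By edgeR 0 members passed, beside 0.0200% of all genes, and the smallest adjusted p was 0.0995. At an unadjusted p under 0.05, 15 members (19.2%) were lower and 0 higher, beside 12.7% and 14.8% of all genes. The groups did not overlap for 35 members, all with CKD JV001 lower (44.9%, all genes 20.1%), and CKD JV001 was higher for 0 (all genes 22.9%). This contrast shares the CKD JV001 libraries with the one against CKD saline, so these are not separate evidence.

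Mrpl32 had the largest difference there, -0.93 (SE 0.26, edgeR adjusted p 0.0995), followed by Mrpl50 at -0.85 (SE 0.25, adjusted p 0.106). Mrpl39 had 54.4, 54.6 and 57.3 CPM after sham operation and 40.0, 40.8 and 21.4 CPM in CKD, both with JV001, a log2 fold change of -0.70 (SE 0.26, adjusted p 0.135). For Mrpl44 the libraries had 49.2, 47.6 and 51.4 against 39.7, 34.1 and 20.01 CPM, or -0.66 (SE 0.25, adjusted p 0.136). In all 4 genes even the highest CKD JV001 library lay below the lowest sham JV001 library. Mrpl17, at 26.9, 27.2 and 30.3 against 29.8, 27.1 and 23.6 CPM, overlapped (log2 fold change -0.07, SE 0.16).

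That contrast also turned on single libraries. Without CKD JV001 library 3 the median was -0.16 and 57 of 78 values were below 0, and without library 3 of both CKD groups 60 were. In the first of these fits 2 members were lower at an unadjusted p under 0.05 (all genes 9.32%), and Mrpl17 had 0.02. There, 36 members were lower without overlap (all genes 24.8%). Another 2 were higher without overlap, for which the share of all genes is not given. Mrpl32 and Mrpl50 passed, both lower, with DESeq2 (all genes lower 6.78%) and, with edgeR, without CKD saline library 3 (all genes lower 4.77%), while Mrpl39 and Mrpl50 passed without library 3 of both CKD groups (all genes lower 5.60%).

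The interaction, the JV001 difference in CKD less that in sham, was below 0 for 78 of 78 genes (all genes 50.1%), with a median of -0.38 and a range of -0.81 to -0.03. By edgeR 0 members passed (0% of all genes, smallest adjusted p 0.840), and DESeq2 and limma called 0. At an unadjusted p under 0.05 there was 1 member, Mrpl50 (1.28%, all genes 1.69% lower and 2.09% higher), at -0.81 (SE 0.36). Mrpl32 had -0.77 (SE 0.37), Mrpl15 -0.66 (SE 0.36), Mrps17 -0.60 (SE 0.29) and Mrpl17 -0.03 (SE 0.23). The median was -0.14 without CKD JV001 library 3, with 66 values below 0, and -0.60 without CKD saline library 3, with 78. It was -0.24 without CKD saline library 1 (74 below 0), and 72 values were below 0 with limma on FPKM. A difference between the effect of JV001 in CKD and in sham hearts was therefore not shown for any single gene of the set.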

How the data were processed

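Polyadenylated RNA of 12 libraries was sequenced. Per the submitters' processing notes, fastp, HISAT2, HTSeq and the build GRCm39 were used; no source used here gives versions, annotation or strand setting. The deposited counts are whole, unnormalised reads per gene symbol. The authors' FPKM came from the same counts: 1 length per gene accounted for 100% of 10249 genes (50 or more reads in all libraries), at a tolerance of 0.01. FPKM served to compare genes and CPM to compare groups.

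All libraries entered 1 edgeR 4.0.16 fit (R 4.3.3; TMM, filterByExpr with minimum count 10, quasi-likelihood F test) of 4 group means; Benjamini-Hochberg adjustment ran over 15004 genes. Log2 CPM used a prior count of 2, marker means log2(CPM + 1). DESeq2 1.42.0, limma 3.58.1 on log2(FPKM + 1) or log2(FPKM + 0.1) and other settings were alternatives. The edgeR fit was also run on simulated data with changes larger than those of the set in the fit of all libraries. That run does not bear on changes as small as those reported here. Columns were matched to labels by group initials and number, with C read as CKD saline. Named genes were those highest and lowest in level per subunit, the smallest p and largest differences per contrast, and genes with set roles. The members and lists were chosen with earlier results of these data known.

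Same-numbered libraries of the 2 CKD groups deviated together (correlations 0.30, 0.29 and 0.49), although the labels tie them to no common source. CKD JV001 library 1 did not correlate best with CKD saline library 1. Deviations within a group sum to 0, so these values are not independent of each other. In sham JV001 against sham saline they were 0.04, -0.08 and 0.22. In the contrasts of CKD against sham they ranged from -0.39 to 0.18. The fit above has no block, and a fit with the number as a block is given beside its results.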

Additional observations from a re-analysis of the deposited data

How the results depend on the processing

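With 3 libraries per group, single libraries moved the group medians; an effect of depth was not tested, and each gene had at least 217 reads in each library. Each library left out in turn moved the median log2 fold change of the 78 genes from -0.69 to -0.25 for JV001 in CKD, from -0.55 to -0.16 for CKD with JV001, from -0.20 to -0.04 for JV001 in sham, from -0.60 to -0.14 for the interaction, and from -0.12 to 0.21 for CKD saline against sham saline. It moved the number of genes passing from 0 to 21 for JV001 in CKD (all genes lower up to 8.07%). For CKD with JV001 the number moved from 0 to 2 (all genes lower up to 4.77%), with 0 in the other contrasts. Other counts moved when a CKD library 3 was left out, and so did the shares of all genes. For JV001 in CKD, genes lower at an unadjusted p under 0.05 ranged from 3 to 65 (all genes 3.12% to 19.3%). Genes lower without overlap ranged from 3 to 77 (all genes 8.75% to 30.8%). For CKD with JV001 the ranges were 2 to 26 (all genes 9.32% to 14.9%) and 35 to 36 (all genes 20.1% to 24.8%).

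Without library 3 of both CKD groups, 29 genes passed for JV001 in CKD (all genes lower 10.1%) and 2 for CKD with JV001 (all genes lower 5.60%). In the first, 60 were lower at an unadjusted p under 0.05 (all genes 18.6%) and 77 lower without overlap (all genes 34.3%). DESeq2 passed 2 genes for CKD with JV001. Over all genes DESeq2 called 2016 there against 3 by edgeR, and 54, 67, 3 and 2 against 0 in CKD saline against sham saline, JV001 in CKD, JV001 in sham and the interaction.

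A replicate block in the fit of 12 libraries passed 0 members in every contrast, and in only the 2 CKD groups the block passed 37; it changed no other call.

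The median of CKD saline against sham saline, -0.01, turned positive with RLE factors (0.011), DESeq2 (0.011), only the groups compared (0.013), without library 3 of both CKD groups (0.21) and with mitochondrial genome and haemoglobin genes left out (0.0098); the cause was not tested. Mrpl17 turned positive with limma on log2(FPKM + 1) and log2(FPKM + 0.1) for JV001 in CKD (0.032, 0.040), CKD with JV001 (0.019, 0.023) and the interaction (0.13, 0.16). It did so without library 3 of both CKD groups for CKD with JV001 (0.01) and with CKD saline libraries 1 and 2 summed in the interaction (0.058). With each library left out in turn it ranged from -0.14 to 0.019 for CKD with JV001 and from -0.18 to 0.059 for the interaction. The cause was not tested. The FPKM settings moved the median of all genes by over 0.1 in some contrasts, to 0.13 for JV001 in CKD and 0.14 for the interaction at a pseudocount of 0.1 and to -0.09 for CKD saline.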
